A study of Mus musculus with 304 samples.

Results

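The 10 genes described here are Arc, Homer1, Ptgs2, Synpo, Akap5, Nptx1, Nptx2, Plk2, Rgs4 and Dusp1. They are synaptic and signalling effectors, and the transcripts of several, though not of each, are known to rise with neuronal activity. They were chosen by symbol, with earlier results of these data known, and are 10 of the 22800 genes in the deposited counts. Their levels were followed in single granule cells of the mouse dentate gyrus, each drawn through a patch pipette as cytosol and sequenced as 1 library after Nextera XT preparation. Control cells (31) came from mice without an injection. Kainic acid, a glutamate receptor agonist, had been microinjected into the hippocampus (70 nl at 5 mM), and cells were taken from the injected side at day 1 (58 cells) and, with no side labelled, at day 14 (29 cells). The other 2 groups were taken 1 month after an AAV, a viral gene carrier, that expressed GFP (59 cells) or Id2 (71 cells), and their labels mention no kainate. Strain, age and the promoter of the AAV are not stated in the labels. No label names an animal, so each group of cells counts as 1 sample, and no difference below was tested. "Higher" and "lower" describe these cells.

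Reads per cell ran from 32487 to 27708910, with group medians of 1738610 in control cells, 6834546 at day 1 and 7615492 at day 14. A level is the group's summed counts scaled by the group's total reads (CPM, counts per 1e6 reads). Over the 50 levels (10 genes in 5 groups), the exact Poisson interval at 95% reached at most 4.44% to either side (Akap5 at day 14), which covers counting error only and not the spread between cells. The granule cell label was checked on 16 markers. Prox1, which defines the type, stood between 217 and 296 CPM in the 5 groups, but the summed markers were 5943 CPM in control cells, 2507 CPM at day 1, 2679 CPM at day 14, 5623 CPM with GFP and 4238 CPM with Id2, and 12 of the 58 day 1 cells held under 1000 CPM. Summed microglia markers (15 genes) stood at 3690 CPM in control cells, 832 CPM at day 1, 6554 CPM at day 14, 192 CPM with GFP and 605 CPM with Id2. Control titles form a J series (22 cells) and others (9 cells), kainate titles a K series, and virus titles 2 sets shared by GFP and Id2, so title series and kainate cannot be told apart. Ratios were also computed within title sets and without the microglia-rich cells (those with at least 1000 CPM of the markers). Libraries labelled low_DG matched control libraries of the same title number and were left out.

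Synaptic activity raises calcium in the neuron, and calcium-driven kinases act on transcription factors already bound at early response genes, among them CREB, which binds the cyclic AMP response element (CRE). Many of the genes so induced do not code for transcription factors but act at the synapse: they remodel spine actin, remove or cluster glutamate receptors, or switch off the signals that induced them. Granule cells fire sparsely, and Arc in the dentate gyrus is known as a mark of the few cells that were recently active.

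Windows around annotated starts from RefSeq (GRCm38.p6) were searched for 6 of the 10 genes, with 2 starts for Homer1. Each window was cut to 250 bases before the start and 30 after it. Synpo was left out of the search, and no window was used for Arc, Nptx1 or Nptx2. The motif counts below therefore describe the 6 searched genes only. Both strands were searched for the full CRE TGACGTCA and its core CGTCA, which lies inside each full CRE, and for the AP-1 motif TGANTCA, the EGR motif GCGNGGGCG and the CArG box. Core matches were found for 5 of the 6 genes and full CREs for 2, against 19.9% and 1.74% of 32851 windows of the same length. The units differ: a gene counts with a match in any of its windows, and the shares are per window. The 4 windows below are printed 5′ to 3′ on the gene's strand because their genes share the core and yet differ in how their levels lie at day 1 and day 14. Capitals mark CRE letters on either strand.
Ptgs2, chr1:150099781-150100060, plus strand: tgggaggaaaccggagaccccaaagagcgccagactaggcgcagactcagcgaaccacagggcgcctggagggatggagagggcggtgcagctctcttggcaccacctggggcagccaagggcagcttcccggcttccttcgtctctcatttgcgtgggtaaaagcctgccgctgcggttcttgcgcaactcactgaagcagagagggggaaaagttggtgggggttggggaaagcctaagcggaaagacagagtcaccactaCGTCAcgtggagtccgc
Plk2, chr13:110394794-110395073, plus strand: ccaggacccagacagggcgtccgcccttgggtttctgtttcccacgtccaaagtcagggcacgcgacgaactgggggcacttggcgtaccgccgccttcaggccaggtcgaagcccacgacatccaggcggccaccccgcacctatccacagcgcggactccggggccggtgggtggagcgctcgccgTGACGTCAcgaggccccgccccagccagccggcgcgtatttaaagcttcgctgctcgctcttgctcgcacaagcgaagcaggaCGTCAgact
Homer1, chr13:93303507-93303786, plus strand: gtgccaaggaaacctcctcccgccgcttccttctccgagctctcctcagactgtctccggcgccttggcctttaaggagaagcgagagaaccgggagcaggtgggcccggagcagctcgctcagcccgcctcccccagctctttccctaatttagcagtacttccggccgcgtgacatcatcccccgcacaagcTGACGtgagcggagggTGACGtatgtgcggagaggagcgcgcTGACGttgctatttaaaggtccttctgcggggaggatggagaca
Dusp1, chr17:26508443-26508722, minus strand: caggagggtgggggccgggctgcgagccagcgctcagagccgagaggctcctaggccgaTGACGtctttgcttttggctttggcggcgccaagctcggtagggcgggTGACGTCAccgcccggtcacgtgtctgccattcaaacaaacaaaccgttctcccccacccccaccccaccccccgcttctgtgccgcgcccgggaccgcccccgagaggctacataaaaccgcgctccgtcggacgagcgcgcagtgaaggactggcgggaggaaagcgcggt
Plk2 and Dusp1 hold the full CRE, whose first base lies 62 and 143 bases before the start. Homer1 holds 3 cores at its first annotated start and none at its second, and Ptgs2 holds 1 core after the start. Rgs4 holds 2 cores, and Akap5 holds none. No AP-1, EGR or CArG match was found in the 7 windows, where 7.46%, 5.3% and 1.56% of all windows hold one. A match describes these letters and is no evidence of binding.

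Scaled by merged exon length, Plk2 was the highest of the 10 in control cells, at 641 CPM per kb, followed by Arc (573) and Rgs4 (485). Dusp1 (200.3) and Nptx2 (93.8) came next. Synpo (11.1) and Akap5 (4.57) were the lowest. Plk2 led in 4 of the 5 groups, and at day 14 Rgs4 led with 374 against 370.2 CPM per kb. Arc ranked 2 in control cells and 5 at day 14, at 82.8 CPM per kb. All values that follow are CPM, not scaled by length.

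**Figure D1:**
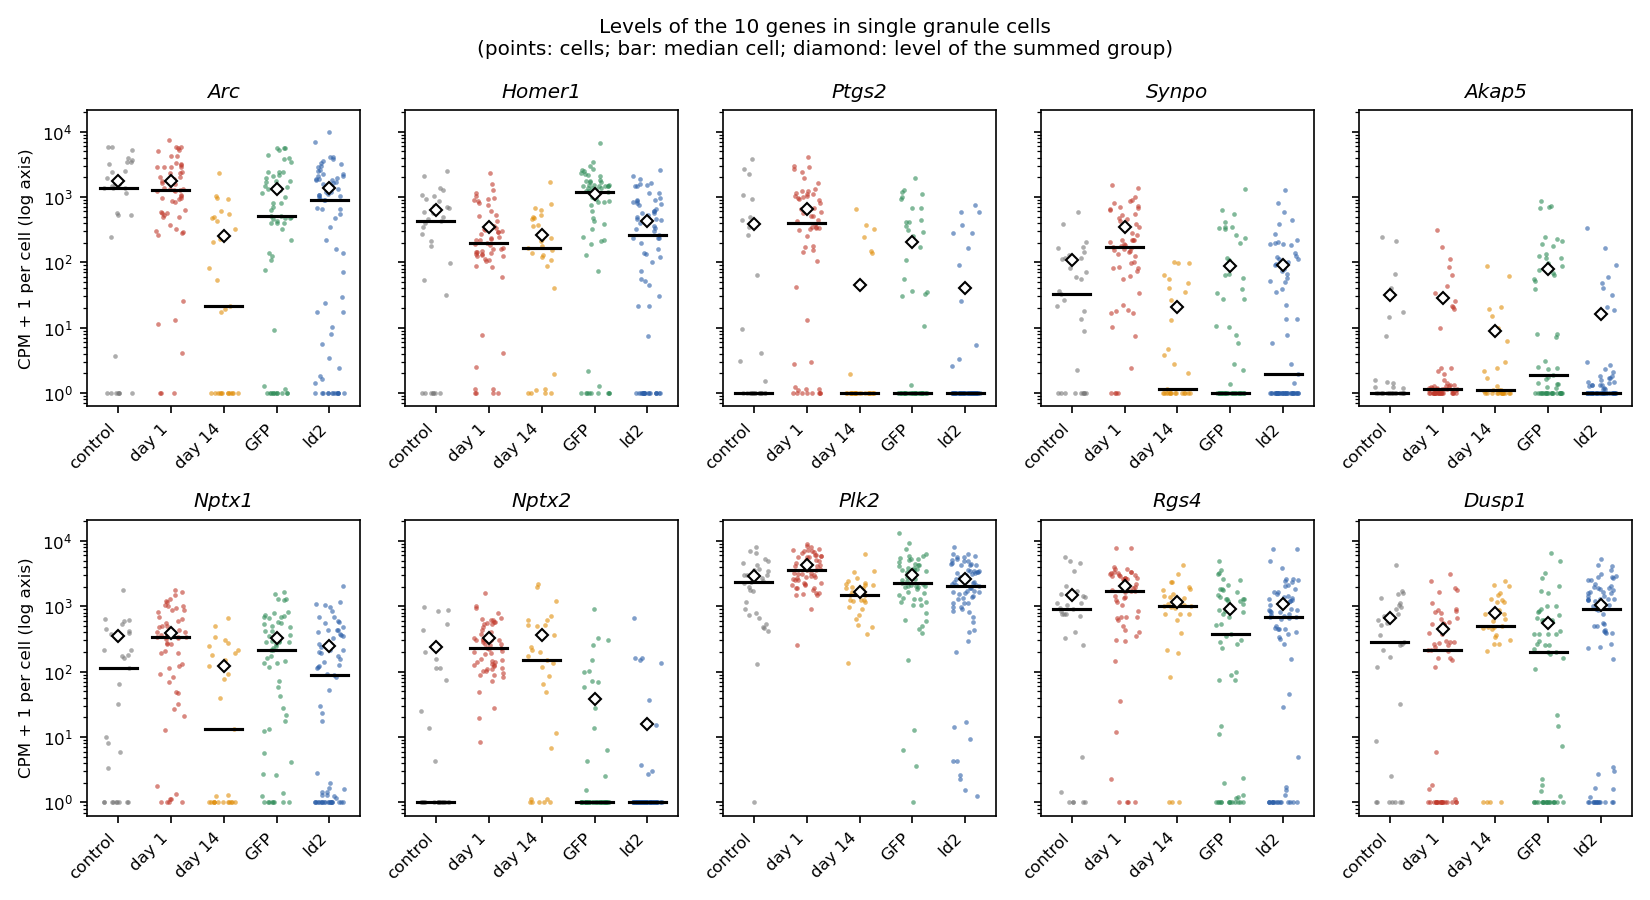
Each panel plots 1 gene, with CPM + 1 per cell on a log axis for the 5 groups (points are cells, bars the median cell, diamonds the summed group). Arc cells at day 14 sit below most others, and the highest Synpo cell at day 14 is at 99.7 CPM. Nptx2 has no day 1 cell at 0. The median cell is at 0 for Ptgs2 in every group but day 1, and for Nptx2 in control, GFP and Id2 cells.

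Arc, a capsid-like protein that binds the endocytic machinery and removes AMPA receptors from synapses (ENSMUSG00000022602.14, chromosome 15, 74669083 to 74672570, minus strand, GRCm38), stood at 1750.3 CPM in control cells, 1766 CPM at day 1, 253 CPM at day 14, 1339.7 CPM with GFP and 1350.1 CPM with Id2. The lowest, median and highest cells were 0, 1389 and 5836 CPM in controls, 0, 1256 and 7371 CPM at day 1, 0, 20.7 and 2342 CPM at day 14, 0, 516 and 5656 CPM with GFP and 0, 898 and 9999.8 CPM with Id2. Cells of every group reached from 0 to over 2000 CPM and the ranges overlap, but only 1 of 29 day 14 cells (3.45%) lay above the control median. The day 14 level was 6.92-fold lower than in control cells (log2 ratio -2.79), while day 1 and control differed by 0.01. At day 14 the cell with the highest CPM held 31.8% of the group's Arc reads, and without the highest cell of each group the ratio was -3.22. Without microglia-rich cells, which left 9 day 14 and 13 control cells, it was -1.53. Reads of Arc were found in 77.4% of control cells, 94.8% at day 1 and 58.6% at day 14, or in 72.4%, 93.1% and 58.6% once each cell had been thinned to 100000 reads, a step that left out 2 control cells.

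Synpo, an actin-associated protein that organises the spine apparatus (ENSMUSG00000043079.17, chromosome 18, 60593973 to 60660142, minus strand), stood at 105.96 CPM in control cells, 351 CPM at day 1, 19.4 CPM at day 14, 86.8 CPM with GFP and 90.9 CPM with Id2. Cells ran through a lowest, median and highest value of 0, 31.5 and 593 CPM in controls, 0, 173.6 and 1531 CPM at day 1, 0, 0.159 and 99.7 CPM at day 14, 0, 0 and 1303 CPM with GFP and 0, 0.972 and 1295 CPM with Id2. Day 1 cells lay highest, with 11 of 58 above the highest control cell, and no day 14 cell passed 99.7 CPM. Synpo was 3.31-fold above control at day 1 (log2 1.72) and 5.47-fold lower at day 14 (log2 -2.39), so that the days differed 18.1-fold. Controls differed among themselves: the 22 with J titles stood at 54.3 CPM and the other 9 at 218 CPM. Against the former the day 1 ratio was 2.67 and against the latter 0.69, under the 2-fold mark. The day 14 ratio was -1.44 and -3.42. After thinning, 89.7% of day 1 cells had a read (exact Clopper-Pearson interval 78.8% to 96.1%) against 68.97% of controls (49.2% to 84.7%) and 34.5% at day 14 (17.9% to 54.3%).

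Homer1, a scaffold of the postsynaptic density that binds Shank (ENSMUSG00000007617.18, chromosome 13, 93299635 to 93405129, plus strand), stood at 627 CPM in control cells, 349 CPM at day 1, 262 CPM at day 14, 1107 CPM with GFP and 424 CPM with Id2. Lowest, median and highest cells were 0, 435 and 2475 CPM in controls, 0, 194.7 and 2343 CPM at day 1, 0, 166.8 and 1685 CPM at day 14, 0, 1195 and 6631 CPM with GFP and 0, 259 and 2624 CPM with Id2. GFP cells were the highest and both kainate groups the lowest, with overlapping ranges. Without microglia-rich cells the controls stood at 1013 CPM, and the log2 ratio of GFP to control went from 0.82 to 0.15. The ratio to control was -0.84 at day 1 and -1.26 at day 14. With GFP cells in place of the controls they were -1.66 and -2.07, and without microglia-rich cells the day 1 ratio was -1.51. Reads counted per gene do not separate the long scaffold form from the short activity-induced Homer1a, and 2 annotated genes overlap Homer1.

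Akap5, the anchor that holds protein kinase A and calcineurin at AMPA receptors (ENSMUSG00000021057.15, chromosome 12, 76324891 to 76334153, plus strand), stood at 31.2 CPM in control cells, 27.6 CPM at day 1, 7.83 CPM at day 14, 78.6 CPM with GFP and 15.5 CPM with Id2. The median cell held under 1 CPM in each group, and the highest cell 239 CPM in controls, 307 CPM at day 1, 85.999 CPM at day 14, 858 CPM with GFP and 332 CPM with Id2. The cell with the highest CPM held 90.4% of the control reads, 66.5% of those at day 1, 31.3% at day 14 and 35.9% with Id2, but 14.6% with GFP, where the upper quartile of cells reached 84.9 CPM. The day 1 ratio of -0.17 was 2.49 without microglia-rich cells and 4.24 against controls without J titles. Its day 14 ratio of -1.86 turned to 0.58 without the highest cell of each group, to 1.12 without microglia-rich cells and to 2.54 against the 9 controls without J titles, which hold 11 Akap5 reads in all. The direction of Akap5 between day 14 and control cells thus differed between these settings.

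Nptx1 and Nptx2 code for secreted pentraxins that gather AMPA receptors at excitatory synapses. Nptx2 (ENSMUSG00000059991.7, chromosome 5, 144545902 to 144557478, plus strand) stood at 238 CPM in control cells, 328 CPM at day 1, 366 CPM at day 14, 36.9 CPM with GFP and 15.02 CPM with Id2. Its lowest, median and highest cells were 0, 0 and 969.6 CPM in controls, 7.39, 232 and 1577 CPM at day 1, 0, 152.2 and 2199 CPM at day 14, 0, 0 and 903 CPM with GFP and 0, 0 and 651 CPM with Id2. Each day 1 cell held a read, as did 82.8% of day 14 cells, against 41.9% of controls, 27.1% with GFP and 14.1% with Id2. After thinning the shares were 98.3% at day 1 (interval 90.8% to 99.96%), 72.4% at day 14 and 44.8% in controls (26.4% to 64.3%). The summed level gave a log2 ratio to control of 0.46 at day 1 and 0.62 at day 14. Without microglia-rich cells these were 1.46 and 2.31, with 599 CPM at day 14 against 119.997 CPM. The control cell with the highest CPM held 48.1% of the control reads, and without the highest cells the ratios were 1.19 and 1.26. Among the 40 pairs of neighbours when each gene's 5 levels are put in order, control and day 1 for Nptx2 were the single pair whose cell quartile ranges did not overlap (0 to 112.7 CPM and 121.1 to 426 CPM).

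Nptx1 (ENSMUSG00000025582.4, chromosome 11, 119538719 to 119547753, minus strand) had a different profile, at 349.9 CPM in control cells, 396 CPM at day 1, 122.9 CPM at day 14, 329.6 CPM with GFP and 250.1 CPM with Id2. The cells gave a lowest, median and highest value of 0, 112.9 and 1755 CPM in controls, 0, 336 and 1807 CPM at day 1, 0, 12.2 and 658 CPM at day 14, 0, 217 and 1663 CPM with GFP and 0, 87.4 and 2060.3 CPM with Id2. Day 14 was the lowest group, 2.85-fold under control (log2 -1.50) and 3.22-fold under day 1. Against J-titled controls (225 CPM) the day 1 ratio was 0.81, and against the others -0.65. The day 14 ratio against the former was -0.87, and against the others (619.8 CPM) -2.33. At day 14 the pentraxins thus lay on opposite sides of the control level, Nptx2 higher and Nptx1 lower.

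Ptgs2, the inducible cyclooxygenase that starts prostaglandin synthesis (ENSMUSG00000032487.8, chromosome 1, 150100031 to 150108227, plus strand), stood at 384 CPM in control cells, 650.4 CPM at day 1, 43.8 CPM at day 14, 206 CPM with GFP and 39.7 CPM with Id2. Lowest, median and highest cells were 0, 0 and 3764 CPM in controls, 0, 403 and 4130.0 CPM at day 1, 0, 0 and 646 CPM at day 14, 0, 0 and 1954 CPM with GFP and 0, 0 and 760.3 CPM with Id2. Day 1 is the one group whose median cell held Ptgs2 reads. A read was found in 86.2% of day 1 cells, 45.2% of controls and 24.1% at day 14, or 75.9%, 34.5% and 24.1% after thinning. The summed level at day 1 was 1.69-fold that of controls (log2 0.76) and 14.9-fold that of day 14. The 9 controls without J titles stood at 777 CPM and the 22 others at 203 CPM, so the day 1 ratio was -0.26 against the former and 1.68 against the latter. At day 14 the ratio was negative against both, -4.12 and -2.19.

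Plk2, a polo-like kinase that takes part in homeostatic weakening of synapses (ENSMUSG00000021701.8, chromosome 13, 110395046 to 110400844, plus strand), stood at 2879 CPM in control cells, 4289 CPM at day 1, 1663 CPM at day 14, 3036 CPM with GFP and 2583 CPM with Id2. Its lowest, median and highest cells were 0, 2333 and 8025 CPM in controls, 255, 3557 and 9142 CPM at day 1, 134.4, 1511 and 6230.0 CPM at day 14, 0, 2268 and 13187 CPM with GFP and 0.263, 2062 and 8102 CPM with Id2. Nearly every cell held reads, and day 1 was highest and day 14 lowest, with overlapping cells. The log2 ratio was 0.57 at day 1, -0.79 at day 14 and 1.37 between the days, the last being 0.84 without microglia-rich cells.

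Rgs4 speeds GTP hydrolysis on Gq and Gi subunits and so dampens receptor signals (ENSMUSG00000038530.11, chromosome 1, 169741477 to 169747642, minus strand), and stood at 1503 CPM in control cells, 2049.7 CPM at day 1, 1157 CPM at day 14, 906 CPM with GFP and 1090.1 CPM with Id2. Its cells had a lowest, median and highest value of 0, 907 and 5633 CPM in controls, 0, 1735 and 7935 CPM at day 1, 0, 1024 and 4348 CPM at day 14, 0, 371 and 4978 CPM with GFP and 0, 678 and 7588 CPM with Id2. Rgs4 was within 2-fold in each of the 5 comparisons made here, but day 1 against GFP cells gave a log2 ratio of 1.18. Controls with J titles stood at 1823 CPM and the others at 812 CPM, and the day 1 ratio was 0.17 and 1.34 against them and the day 14 ratio -0.65 and 0.51.

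Dusp1, a nuclear phosphatase that switches off MAP kinases (ENSMUSG00000024190.7, chromosome 17, 26505590 to 26562128, minus strand), stood at 663 CPM in control cells, 455 CPM at day 1, 776 CPM at day 14, 549 CPM with GFP and 1035 CPM with Id2. The lowest, median and highest cells were 0, 284 and 4225 CPM in controls, 0, 214 and 3158 CPM at day 1, 0, 502 and 2432 CPM at day 14, 0, 196.02 and 6622 CPM with GFP and 0, 909 and 5324 CPM with Id2. Among the kainate cells Dusp1 ran against most of the other genes, lower at day 1 than at day 14 (log2 -0.77). Without microglia-rich cells that ratio was 0.07, and the day 14 ratio to control went from 0.23 to -1.52, with 417 against 1202 CPM in the cells that remained. Across thinned cells, the rank correlation of Dusp1 with the summed microglia markers was 0.35 at day 14 (29 cells) and -0.41 in controls (29 cells), over values that share a library. The annotation places 4 genes over Dusp1, Ergic1 among them, and no source used here gives the counting strand, so reads of overlapping genes cannot be told apart.

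Taken by comparison, day 1 set against control asks which effectors stood apart 1 day after kainate. A gene counted as measured when either group had reads in 20% or more of its cells and 5 CPM or more, and as past 2-fold where the log2 ratio, taken after adding 1 CPM, was at least 1 in size. All 10 genes were measured in each comparison. At day 1, 1 of the 10 was higher by 2-fold (Synpo), where 23.2% of 9079 measured genes were higher, and 0 were lower, where 15.2% were (38.4% of all lay past it on either side). The median log2 ratio was 0.31 for the 10 genes and 0.17 for all measured genes. This share of 1 in 10 is below the background share. Scaling by the median ratio of all genes shifted the genome-wide median from 0.17 to 0.03 at day 1 and from 0.14 to 0.04 at day 14. Without microglia-rich cells 4 were higher (Akap5, Synpo, Nptx2 and Ptgs2) and 2 lower (Homer1 and Dusp1), when 30.5% and 16.9% of all genes were.

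At day 14, 0 of the 10 were higher by 2-fold than control, where 23.8% of 9469 measured genes were, and 6 were lower, where 15.8% were (39.6% on either side). The 6 were Ptgs2 (log2 -3.11), Arc (-2.79), Synpo (-2.39), Akap5 (-1.86), Nptx1 (-1.50) and Homer1 (-1.26). Their functions span receptor endocytosis, spine actin, scaffolding and prostaglandin synthesis. The median of the 10 was -1.38, against 0.14 for all measured genes. Over the 13 alternatives, Arc, Ptgs2 and Synpo were lower by 2-fold in each, Homer1 in 12, Nptx1 in 11 and Akap5 in 10. The other 4 were within 2-fold: Plk2 (-0.79), Rgs4 (-0.38), Dusp1 (0.23) and Nptx2 (0.62). Without microglia-rich cells 2 were higher (Nptx2, 2.31, and Akap5, 1.12) and 6 lower, with Dusp1 (-1.52) in place of Akap5, when 27.4% and 25.7% of all genes were. Summed markers of microglia (6554 against 3690 CPM) and of granule cells (2679 against 5943 CPM) differed between these groups as well, and their part was not tested. Day 1 and day 14 are both read against the same 31 control cells.

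Set directly against day 14, day 1 cells were higher by 2-fold in 6 of the 10, where 16.6% of 9823 measured genes were, and lower in 0, where 17.4% were (34% on either side). These were Synpo (4.11), Ptgs2 (3.86), Arc (2.80), Akap5 (1.69), Nptx1 (1.68) and Plk2 (1.37). The median was 1.52 over the 10, against 0.02 for all measured genes. Ranked by ratio among all measured genes, Synpo lay at percentile 99.7, Ptgs2 at 99.6 and Arc at 98.3. Arc, Ptgs2, Synpo and Nptx1 were higher by 2-fold in each of the 10 alternatives. Summed microglia markers moved with the days too, at 832 CPM against 6554 CPM. Without microglia-rich cells, which left 50 and 9 cells, Arc stood at 1.87, Ptgs2 at 3.47 and Synpo at 3.52. The number higher was then 5, with Plk2 at 0.84, and 29.1% of all genes were higher. Titles of the 2 days share the K series but not their numbers, so a batch between the days and the days themselves cannot be told apart.

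**Figure D2:**
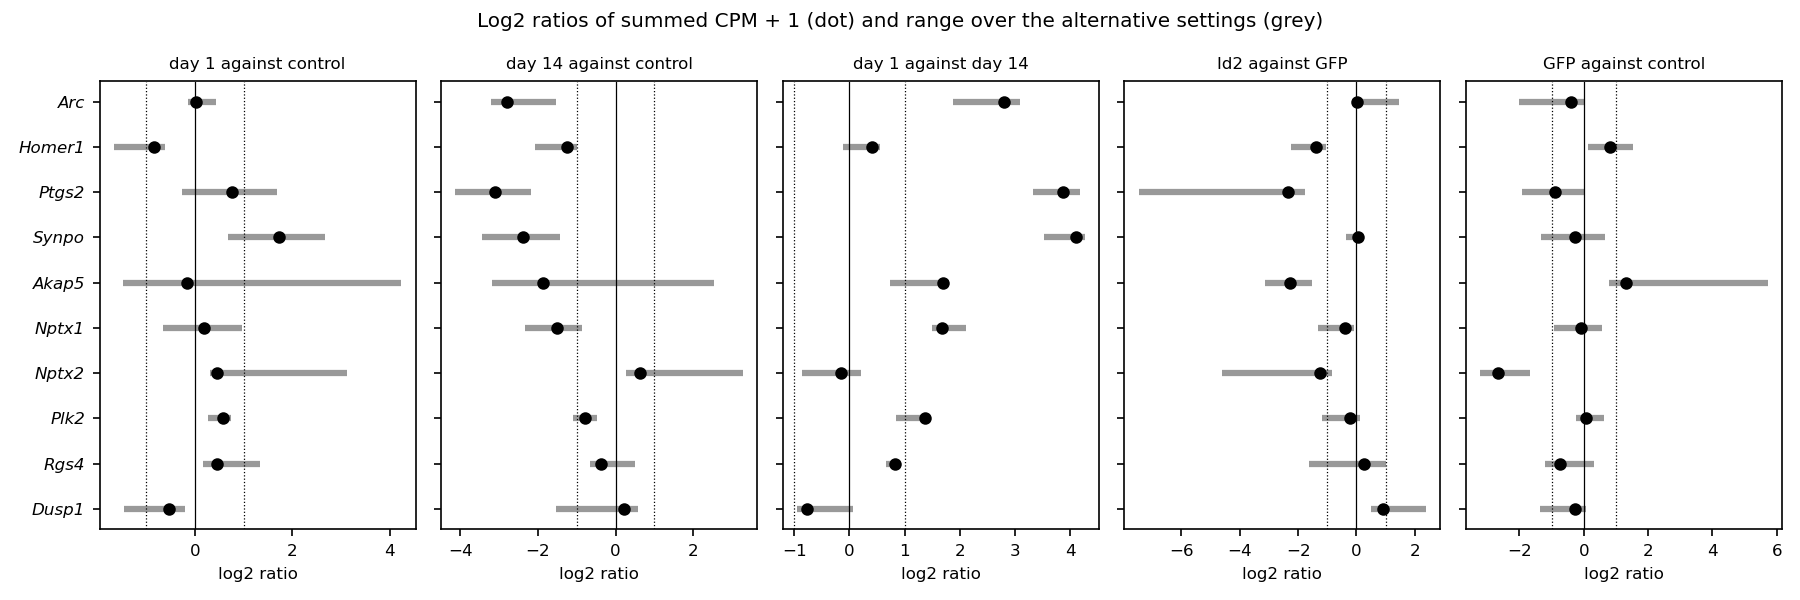
The log2 ratio of summed CPM + 1 (x axis, dots) of the 10 genes in 5 comparisons, with the range over the alternative settings in grey and dotted lines at 2-fold. Arc, Ptgs2 and Synpo lie left of -1 in each setting for day 14 against control, whereas the Akap5 range crosses 0.

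**Figure D3:**
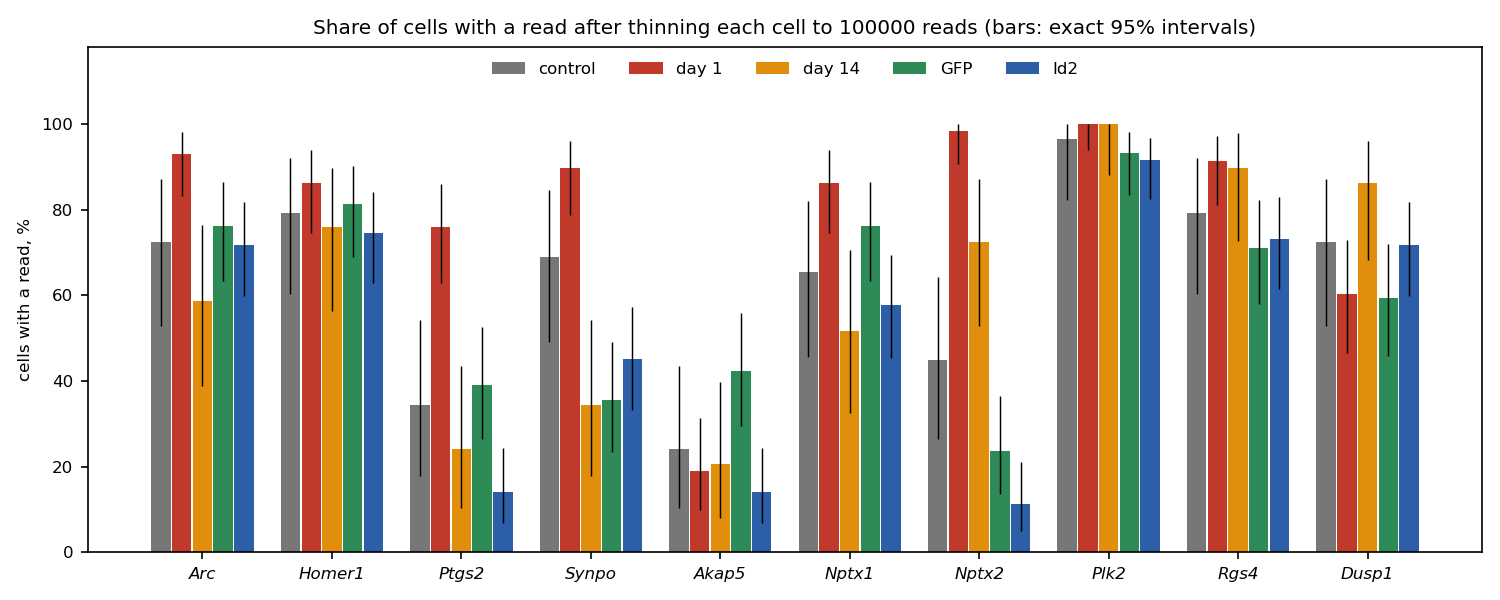
Bars show the share of cells with a read (y axis, %) for each gene after each cell was thinned to 100000 reads, with exact 95% intervals, in the 5 groups. Day 1 bars are highest for Ptgs2 (75.9%), Synpo (89.7%) and Nptx2 (98.3%), and Id2 bars lowest for Ptgs2 (14.1%) and Nptx2 (11.3%).

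Id2, an inhibitor that binds basic helix-loop-helix factors, was expressed from the AAV, with GFP as its control. With Id2, 0 of the 10 genes were higher by 2-fold, where 10.2% of 7846 measured genes were, and 4 were lower, where 12.6% were (22.9% on either side). The 4 were Ptgs2 (log2 -2.34), Akap5 (-2.27), Homer1 (-1.38) and Nptx2 (-1.24). Medians were -0.31 over the 10 and -0.10 over all measured genes. Ptgs2 stood at 39.7 CPM in 16.9% of Id2 cells and 206 CPM in 42.4% of GFP cells (14.1% and 38.98% after thinning). Homer1 stood at 424 CPM (interval 421 to 426) with Id2 and 1107 CPM (1102 to 1111) with GFP, and its quartiles were 3.26 to 703 CPM and 217 to 1603 CPM, which overlap. With all cells of each group summed, Arc (0.01), Synpo (0.07) and Plk2 (-0.23) had ratios near 0. Dusp1 was 1.89-fold higher with Id2 (log2 0.91), just short of 2-fold.

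Virus cells fall into a set with titles up to 95 (43 GFP and 43 Id2 cells) and a set with higher numbers (16 and 28 cells), and the comparison was repeated in each. Within the former, 4 of the 10 passed 2-fold, 1 of them higher, where 12.7% of measured genes were higher and 19.5% lower. Within the latter 9 did, 2 higher and 7 lower, where 22.95% and 18.9% of measured genes were. Homer1 was lower with Id2 in both, at 444 against 924 CPM and 383 against 1814 CPM. Ptgs2 stood at 58.6 against 203 CPM in the former set, and in the latter at 0.232 CPM (20 reads, all in 1 of 28 cells) against 217 CPM. Akap5 was also lower in both (log2 -2.56 and -1.53), while Nptx2 passed 2-fold in the latter alone (-0.82 and -4.60), with 5 reads in its Id2 cells. Dusp1 was higher with Id2 in both (0.49 and 2.39). Rgs4 changed side, at 1323 against 658 CPM and then 603 against 1863 CPM. Plk2 was near equal in the former set (0.11) and lower with Id2 in the latter (-1.17), at 2000 against 4498 CPM. Nptx1 stood at -0.10 in the former and -1.33 in the latter. Arc was near equal in the former set (-0.15) and higher with Id2 in the latter (1.45), where GFP cells stood at 438 CPM against 1573 CPM in the former. The differences between the sets were not tested. Microglia markers summed to 217 and 654 CPM in the GFP and Id2 cells of the former set and 92.9 and 501.5 CPM in those of the latter, and without microglia-rich cells Homer1 stood at -1.55 and Ptgs2 at -2.16.

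**Figure D4:**
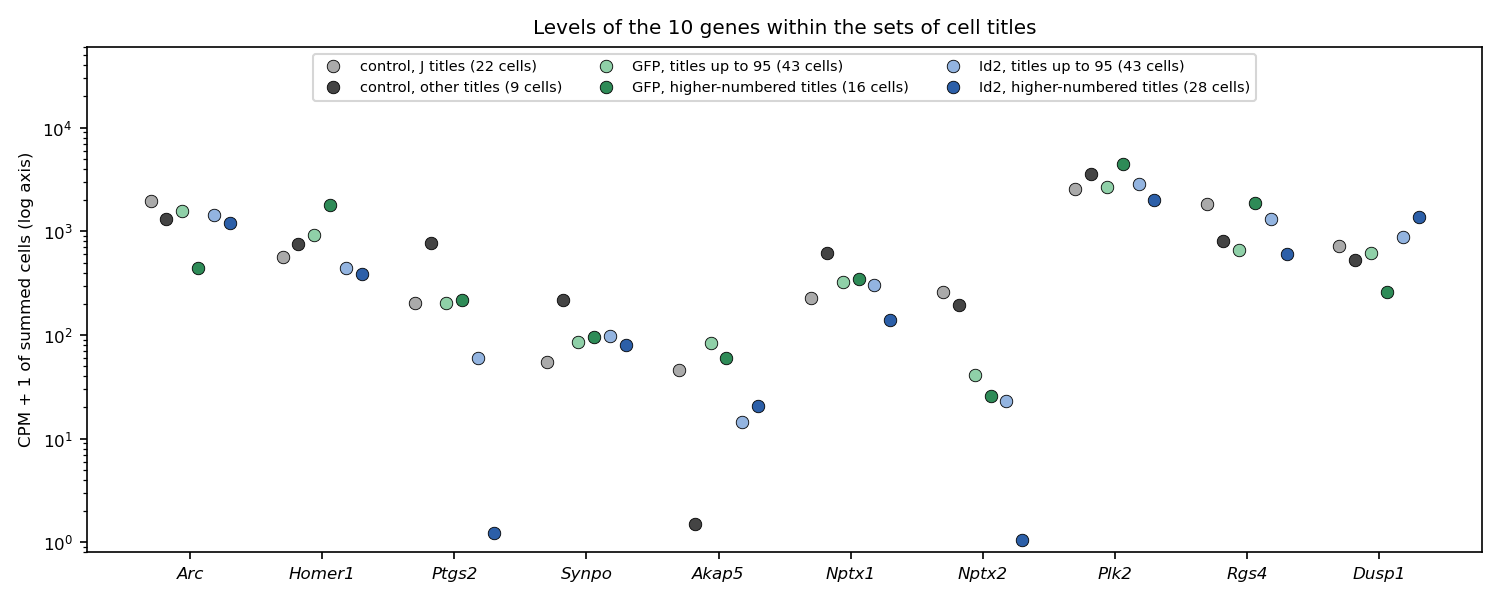
CPM + 1 of summed cells (y axis, log) for the 10 genes, with 1 point for each title set of control, GFP and Id2 cells. Ptgs2 and Nptx2 sit near the bottom in Id2 cells with higher-numbered titles, and Akap5 in controls without J titles (0.518 CPM).

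Before kainate or Id2 enter, GFP cells and uninjected controls can be set side by side. Akap5 was higher by 2-fold with GFP (78.6 against 31.2 CPM, log2 1.31) and Nptx2 lower (36.9 against 238 CPM, log2 -2.66), so 1 of 10 lay on each side, where 19.3% and 13% of 8085 measured genes did (32.3% on either side). The other 8 were within 2-fold. With J-titled cells alone as controls the Akap5 ratio was 0.78, short of 2-fold, and with the other 9 it was 5.71. Of the control reads, 1 cell held 90.4%. Nptx2 was lower in each of the alternatives tried, by 1.66 to 3.22 on the log2 scale. These groups differ in virus, titles and microglia marker level (192 against 3690 CPM), whose parts were not tested.

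Lists of genes that work with the 10 were described by the same measure, and each count can be read against the share of all measured genes: 23.2% higher and 15.2% lower at day 1, 23.8% and 15.8% at day 14. Of 19 activity-induced transcription factors, 2 of 18 measured were higher by 2-fold and 5 lower at day 1, with a median of -0.48, and at day 14 3 of 19 were higher and 9 lower, with a median of -0.97. Without microglia-rich cells the counts were 5 higher and 6 lower at day 1 and 2 and 9 at day 14. In GFP cells against controls, 7 of 17 measured factors were higher and 1 lower (median 0.77), where 19.3% and 13% of all measured genes were. Npas4, a calcium-induced factor, stood at 3.37 against 282 CPM at day 14 and Egr3 at 3.998 against 44.6 CPM. Crem, a cyclic AMP responsive factor, was higher at both days (53.8 against 8.93 CPM and 56.8 against 8.93 CPM). Of 29 other synaptic and secreted effectors 12 were higher and 5 lower at day 1, with a median of 0.61, and 9 higher and 5 lower at day 14, with a median of -0.14. Without microglia-rich cells 15 and 5 were at day 1 and 11 and 8 at day 14, when 30.5% and 16.9%, and 27.4% and 25.7%, of all genes were. In GFP cells against controls 1 of 20 measured effectors was higher and 5 lower. Inhba, an activin subunit, stood at 727 against 46.6 CPM between the days and Syt4, a vesicle protein, at 1264 against 190.99 CPM.

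Partners of Homer1 in the postsynaptic scaffold had 6 of 19 members higher and 4 lower at day 1 (median -0.21), and 1 of 18 higher and 7 lower at day 14 (median -0.53), or 3 and 5, and 3 and 9, without microglia-rich cells. Shank1, to which Homer binds, stood at 264 against 40.1 CPM at day 1, and Homer3 at 47.9 against 12.7 CPM. GFP cells, whose labels mention no kainate, stood at 65.7 CPM for Shank1 and 49.96 CPM for Homer3. Of the pentraxin partners, Nptxr, the membrane-bound pentraxin, stood at 270.3 against 128.2 CPM at day 1, and Gria4, an AMPA receptor subunit known to bind pentraxins, at 164.7 against 31.5 CPM at day 14. C1ql2 was lower, at 176.1 CPM at day 1 and 112.7 CPM at day 14 against 482 CPM in controls. C1ql3 was lower at day 1, at 38.1 against 102.2 CPM. Both are also among the 16 granule cell markers. Of the 14 markers measured, 11 were lower by 2-fold at day 1 and 8 at day 14. The list as a whole had 1 of 7 higher and 3 lower at day 1 and 2 of 7 higher and 1 lower at day 14, where 3 were lower without microglia-rich cells.

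Among the partners of Arc and Synpo in endocytosis and actin, 2 of 15 were higher and 2 lower at day 1, with the crosslinker Actn4 at 309 against 93.6 CPM and the clathrin adaptor Ap2m1 at 916 against 289.7 CPM. GFP cells also stood above controls for Actn4, at 270 CPM. At day 14 1 of 16 was higher (Ap2b1, 113.6 against 40.8 CPM) and 1 lower. Without microglia-rich cells 2 were higher and 5 lower at day 1, and 3 on each side at day 14. Akap5 partners had 3 of 17 higher and 2 lower at day 1 (5 and 3 without microglia-rich cells) and 3 of 17 higher and 4 lower at day 14, with or without them. Of these, the kinase A subunit Prkar2b stood at 72.3 against 6.13 CPM and 156.2 against 6.13 CPM, and the calcium-activated cyclase Adcy1 at 60.7 against 400.4 CPM at day 1. Prkar2b was above controls in GFP cells too, at 47.6 CPM.

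Relatives of Plk2 and its substrates had 0 of 7 higher and 2 lower at day 1 and 1 of 7 higher and 3 lower at day 14. Plk5 stood at 8.97 against 157.1 CPM at day 1 and 1.44 against 157.1 CPM at day 14, Rapgef2, a Plk2 substrate, at 73.7 against 252 CPM and 36.9 against 252 CPM, while Plk3 was higher at day 14 (151.4 against 34.2 CPM). Without microglia-rich cells the list had 0 higher and 2 lower at day 1, and 0 and 3 at day 14. Plk3 was then not higher by 2-fold. In GFP cells Rapgef2 stood at 84.2 CPM, also under the control level. RGS proteins and their G protein subunits had 3 of 16 higher and 5 lower at day 1 and 3 of 16 higher and 6 lower at day 14 (5 and 2, and 4 and 2, without microglia-rich cells), with Rgs7 at 1183 against 187.5 CPM and Rgs6 at 76.7 against 0.506 CPM at day 1. Rgs10, which microglia also express, stood at 32.8 against 253 CPM between day 1 and day 14, beside the microglia marker sums given above. DUSP and MAP kinase genes had 3 of 18 higher and 2 lower at day 1 and 3 of 19 on each side at day 14 (4 and 3, and 4 and 4, without microglia-rich cells), with Dusp4 at 159.9 against 68.6 CPM at day 1. Of 17 prostaglandin pathway genes 4 were measured at either day, 1 of them higher at day 1 (Ptgis, 8.14 against 0.327 CPM) and 1 lower at day 14 (Ptger1, 10.5 against 24.1 CPM), where 2 were higher and 0 lower without microglia-rich cells.

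With Id2 against GFP, 10.2% of all measured genes were higher and 12.6% lower. The factor list had 0 of 17 higher and 1 lower, Nr4a2 at 161.2 against 583 CPM. DUSP and MAP kinase genes had 0 of 17 higher and 3 lower, among them Dusp4 at 25.7 against 89.7 CPM and Dusp5 at 10.9 against 31.6 CPM. The Akap5 partners had 2 of 17 higher and 4 lower, with the kinase gene Prkcb at 54.1 against 141.3 CPM and the calcineurin subunit Ppp3cb at 199.9 against 64.9 CPM. Scaffold genes had 1 of 19 higher (Shank1, 139.7 against 65.7 CPM) and 2 lower, and the Plk2 list 0 of 6 on either side. The counts differed between the title sets. In cells with titles up to 95, where 12.7% of all genes were higher and 19.5% lower, the factor list had 1 higher and 2 lower, the DUSP list 0 and 2, the Akap5 partners 2 and 4, the scaffold genes 1 and 4 and the Plk2 list 0 and 0. In those with higher-numbered titles, where 22.95% and 18.9% of all genes were, they had 2 and 5, 5 and 3, 2 and 5, 2 and 3, and 2 and 0.

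Within a group, cells that held more of one gene could be compared for others. The measure was the mean over the 5 groups of the Spearman correlation across thinned cells, which share a library and its depth, over 2497 genes with reads in 30% or more of the cells in all 5 groups. Most like Arc were the early response genes Egr1 (0.39, from 0.21 to 0.62), Fos (0.37, from 0.17 to 0.48) and Btg2 (0.32, from 0.04 to 0.62). Homer1 came closest to Fosb (0.44, from 0.36 to 0.56), an AP-1 subunit, then Frmd6 (0.40, from 0.09 to 0.72). Dusp1 was most like Egr1 (0.36, from 0.06 to 0.58), Junb (0.31, from 0.14 to 0.44) and Nr4a1 (0.30, from 0.07 to 0.67). Nfil3 for Plk2 (0.32, from 0.16 to 0.45), Actr3b for Rgs4 (0.33, from 0.14 to 0.58) and Nrcam for Synpo (0.31, from 0.12 to 0.54) had the highest means for those genes. Nptx1 had no gene at a mean of 0.3, and Ptgs2, Akap5 and Nptx2 were read in too few cells to enter. Among themselves the 10 genes were only loosely related: the highest mean was 0.25 for Arc and Ptgs2 (0.09 to 0.50 in the 5 groups), and the next 0.23 for Ptgs2 and Plk2 (0.06 to 0.50). In these sparse counts such values describe the cells and are no finding of a link.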

How the data were processed

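Counts per gene came from single-cell Patch-seq libraries. The authors deposited whole-number counts for 22800 genes in 291 cells and a scaled signal for 252 cells, which equals the counts times 1 factor per cell. The table names read the other way round, so each unit was settled on its values. The submitters' processing notes name Trimmomatic, STAR, featureCounts and GRCm38, without versions. No source used here gives the strand setting, the rule behind the quality labels or the method of scaling.

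For 13 of the 304 samples no column carries the title. Cells labelled as passing were used (248 in the 5 groups), 2 low_DG libraries were left out, and 2 cells of the other hemisphere at day 1 enter no comparison. Depth is given with the levels. Each library is 1 cell, so no barcodes are shared. Counts were summed per group and scaled to CPM, and log2 ratios were taken after adding 1 CPM. Intervals at 95% are exact Poisson for levels and exact Clopper-Pearson for shares of cells. Reads are not independent molecules, and the Poisson intervals cover counting error only. The Clopper-Pearson intervals take the cells of a group as independent draws. Neither covers differences between animals, which the labels do not name. Scripts ran under Python 3.11.15, numpy 2.4.6, pandas 2.3.3, scipy 1.17.1 and matplotlib 3.10.9, and were tested on simulated data. Gene positions and lengths are from GENCODE M21.

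Replicate numbers were given in accession order and name cells only. No test was made, since each group is 1 sample. The 10 genes and the 10 partner lists were chosen with earlier results of these data known. Besides the 10, up to 3 measured genes per list and comparison were eligible to be named: those largest in ratio among genes past 2-fold with 1 sign in summed, mean and thinned values. Not all of the eligible genes are reported here. Genes most like a member were named at a mean correlation of at least 0.3. Alternatives were the mean over cells, thinning, pseudocounts of 0.1 and 5, median-ratio scaling, the scaled signal, failed cells, no filter, the highest cell left out, microglia-rich cells left out, title sets, GFP cells as control and, chosen after seeing the data, leaving out cells low in granule markers, and list counts without microglia-rich cells and within title sets.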

Additional observations from a re-analysis of the deposited data

How the results depend on the processing

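The numbers of the 10 genes past 2-fold are given here as higher and lower together. At day 1 against control the number was 1, but 2 by the mean over cells, after thinning, with the scaled signal and against J-titled controls, 3 without the highest cell of each gene and against controls without J titles, and 6 without microglia-rich cells and against GFP cells. At day 14 against control it lay between 5 and 8, with 6 as reported, and between 5 and 6 for day 1 against day 14. With Id2 against GFP it was 9 in higher-numbered titles where 4 is reported. For GFP against control it was 4 against controls without J titles and in higher-numbered titles, where 2 is reported. Akap5 at day 14 turned from -1.86 to 0.58 without its highest cells, to 1.12 without microglia-rich cells and to 2.54 against controls without J titles. The cause was not tested, except that 1 cell holds 90.4% of the control reads of Akap5. Beside these 3, 505 of 620 single ratios under alternatives moved by more than the counting interval. In all, 52 of the 620 had the opposite sign, and 49 of them belong to ratios reported within 2-fold. No paired analysis was possible because the replicate numbers only name cells in accession order and no label ties cells of different groups. Depth limits the thinned values: 2 control cells fell under 100000 reads. With 1 sample per group, differences between animals, title series and treatment cannot be told apart for kainate.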

Other observations

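From the side opposite the injection at day 1, 2 cells passed quality control and enter no comparison. Rgs4, the brake on G protein signals, stood at 4473 and 8132 CPM in them, where the highest control cell held 5633 CPM. Plk2, the polo-like kinase, stood at 6464 and 5336 CPM, and Arc at 2275 and 1412 CPM. Synpo stood at 369.8 and 341 CPM and Ptgs2 at 575 and 406 CPM, beside group levels of 351 and 650.4 CPM on the injected side and 105.96 and 384 CPM in controls. The pentraxin gene Nptx2 stood at 834 and 308 CPM. Dusp1 had no read in the former cell and 917 CPM in the latter, and Akap5 held at most 0.154 CPM. These are single cells with no replicate and are given as values.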
